A study of Mus musculus with 24 samples.

Results

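The nuclear-encoded subunits of the mitochondrial respiratory chain were described at the mRNA level in mouse E14 embryonic stem cells, wild type or labelled as knockout of Smad2, which codes for an intracellular effector of Nodal and activin receptors. Members were chosen by name and not by value. They were the symbols that start with Ndufa, Ndufb, Ndufc, Ndufs, Ndufv, Uqcr, Atp5 or any of Cox4 to Cox8, together with Sdha, Sdhb, Sdhc, Sdhd, Cyc1 and Cycs. Without 7 Ndufaf assembly factors and 1 pseudogene symbol that share these letters, members made up 85 of the 20625 symbols in either table. All 85 were present in both tables. By name 38 belong to complex I, 4 to complex II, 9 to complex III, 1 to cytochrome c, 16 to complex IV and 15 to complex V. The other 2, Atp5s and Atp5sl, carry the prefix but are not subunits of the ATP synthase. Ndufa4 was counted with complex I for its name although its protein sits in complex IV, and Cox7a2l, counted with complex IV, codes for a factor that joins complexes into supercomplexes.

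E14 is an established embryonic stem cell line, grown here on gelatin in medium with serum and leukaemia inhibitory factor. The genotypes were wild type and the knockout lines Smad2_KO1 and Smad2_KO2, and each genotype was kept for 12 h either as a control or with 200 nM INK128, an mTOR kinase inhibitor that brings these cells into a paused state. The series has 24 poly(A) RNA libraries in 6 groups of 4. The labels do not say how Smad2 was disrupted, whether a line is 1 clone or whether replicates are separate cultures, so p-values measure the spread between these libraries, which may be technical.

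The respiratory chain passes electrons from NADH (complex I) or succinate (complex II) through complex III and cytochrome c to oxygen at complex IV, and the proton gradient that complexes I, III and IV build drives ATP synthesis by complex V. Most subunits are encoded in the nucleus and imported, while a small core is encoded by mitochondrial DNA, so each complex except complex II is assembled from the products of both genomes. Several subunits exist as alternative isoforms from separate genes, many of them known for their use in heart, muscle, lung or testis. Embryonic stem cells in serum use both glycolysis and respiration, and mTOR signalling is known to promote the synthesis of mitochondrial proteins.

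The data were a table of Smad2 knockout against wild type in control cells and another in paused cells, each giving per symbol a mean of normalized counts over libraries, a log2 change, its standard error (SE) and an adjusted p. No value of a single library was available, so levels per group, spread and depth are unknown, and the knockout lines could not be told apart. The numerator is not named. Knockout over wild type was assumed, since Smad2 had a change of -0.35 (SE 0.07) in the authors' deposited control table and of -0.63 (SE 0.06) in the paused one. That leaves Smad2 mRNA at 78.6% and 64.6% of wild type, so most of the transcript was still counted in the lines labelled knockout. No table bears on the protein. All 8 pluripotent cell markers looked up, among them Pou5f1 and Nanog, had means of at least 8797 normalized counts in both of the authors' deposited tables, with 2 called lower and 2 called higher in each. All 5 primitive endoderm markers were called higher in both tables, with a median change of 1.41 in control and 1.28 in paused cells and a summed level of 19.3 and 38.7 ppm (the share of the summed means times 1e+06). All 5 markers of the two-cell-like state were called higher as well, with medians of 0.75 and 0.66 and summed levels of 1335 and 499 ppm. Of 4 mesendoderm markers 3 were called lower in control and 2 in paused cells (medians -1.22 and -0.83, summed levels 13.9 and 13.8 ppm), with T at -4.66 and -3.86. Of 5 fibroblast markers 3 were called lower in each table (medians -0.87 and -0.93, summed levels 17.7 and 18.0 ppm), with Col1a1 at -2.79 and -3.53. Of 4 neuroectoderm markers 2 were called lower and 1 higher in each (medians -0.27 and -0.48, summed levels 149 and 56.6 ppm). Among these, Pax6 stood at -0.63 and -1.19, and Sox1, the 1 called higher, at 0.98 and 1.18. No marker of these lists had a mean of 0. The part of these lists in the results on the respiratory chain was not tested. In such bulk RNA fewer cells of a type and less RNA per cell cannot be told apart.

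Promoters of 4 members are shown, chosen after their values were seen. Cox6b1 and Cox6b2 are an isoform pair of complex IV called in opposite directions, Ndufs6 is a complex I member called lower in control cells, and Atp5k is a complex V member called lower in both conditions. Each runs 5′ to 3′ from 250 bases before to 50 after the listed gene start, from RefSeq on GRCm38.p6 and all on the minus strand: chr7:30626065-30626364, chr7:4753045-4753344, chr13:73328433-73328732 and chr5:108434350-108434649 in the order printed. Capitals mark matches on either strand to CCAAT, to AAGATGGCG, a form of the motif of YY1, or to GCGCATGCG, from the motif of nuclear respiratory factor 1 (NRF1). The capitals of Atp5k hold 2 NRF1 matches on opposite strands that overlap, and no other matches in these windows overlap.
Cox6b1: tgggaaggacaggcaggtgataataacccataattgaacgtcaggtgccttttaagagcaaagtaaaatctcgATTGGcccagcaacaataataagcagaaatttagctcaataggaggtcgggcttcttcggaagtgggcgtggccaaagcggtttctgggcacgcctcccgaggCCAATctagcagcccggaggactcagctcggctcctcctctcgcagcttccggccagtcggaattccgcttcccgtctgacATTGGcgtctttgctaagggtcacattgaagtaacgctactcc
Cox6b2: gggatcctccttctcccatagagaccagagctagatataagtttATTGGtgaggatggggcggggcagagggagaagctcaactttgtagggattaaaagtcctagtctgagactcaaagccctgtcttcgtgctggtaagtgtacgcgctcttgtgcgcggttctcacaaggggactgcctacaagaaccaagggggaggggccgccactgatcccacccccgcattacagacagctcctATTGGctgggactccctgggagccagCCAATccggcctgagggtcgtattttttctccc
Ndufs6: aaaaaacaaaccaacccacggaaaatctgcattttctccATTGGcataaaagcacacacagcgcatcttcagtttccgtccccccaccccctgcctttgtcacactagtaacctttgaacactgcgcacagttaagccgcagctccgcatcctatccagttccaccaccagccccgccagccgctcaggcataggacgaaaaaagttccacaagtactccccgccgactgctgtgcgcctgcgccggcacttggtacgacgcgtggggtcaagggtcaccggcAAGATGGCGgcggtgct
Atp5k: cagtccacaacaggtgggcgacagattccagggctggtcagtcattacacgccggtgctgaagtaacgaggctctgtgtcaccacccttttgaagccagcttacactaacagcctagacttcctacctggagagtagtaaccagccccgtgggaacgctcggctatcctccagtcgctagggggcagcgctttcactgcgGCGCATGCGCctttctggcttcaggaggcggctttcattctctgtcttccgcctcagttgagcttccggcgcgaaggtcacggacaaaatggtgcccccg

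RefSeq promoter entries matched 70 of the 85 members, with 76 entries. The NRF1 motif was found in 9 of these (11.8%) against 1.75% of 32851 promoters of the same length, and the YY1 motif in 9 (11.8%) against 1.40%. The ETS motif CCGGAAGT, read by GABP, was in 5 (6.58%) against 3.89% of all, and CCAAT in 33 (43.4%) against 37.4%. Members carrying the YY1 motif were Atp5j, Atp5j2, Atp5sl, Ndufa9, Ndufc1, Ndufs4, Ndufs6 and Ndufs7, of which 3 were called lower in control and 2 in paused cells. Over all members 35.3% and 27.1% were called lower, and over all genes 21.9% and 22%. Those with the NRF1 motif were Atp5g2, Atp5k, Atp5l, Cox6a1, Cycs, Ndufa11, Ndufa8, Uqcr11 and Uqcrc1, of which 2, Atp5k and Cycs, were called lower, in both conditions. The pair Cox6b1 and Cox6b2 each held 3 CCAAT matches and none of the other motifs. A match here describes letters only and is not evidence of binding.

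In control cells more respiratory chain mRNAs were lower than higher in the Smad2 knockout, by small amounts. Of the 85 members in the authors' deposited control table, 37 had an adjusted p under 0.05 and are named called here, against 41.4% of all 19778 genes tested. Of these, 30 were lower (21.9% of all genes were called lower) and 7 were higher (19.5% of all genes). The median member changed by -0.10 on the log2 scale, with 63 of 85 below 0, beside a median of 0.00 over all genes. Members are mostly abundant: 79 of 85 had a mean of at least 5 ppm in both tables, and genes of that level had a median of -0.05. Among them 38.0% of the members were called lower against 31.6% of all such genes, and 6.33% were called higher against 17.9%. A change of at least 1.2-fold was reached by 10 called members (28.5% of all genes), and 3 reached 1.5-fold (15% of all genes), namely Atp5e, Cox8c and Ndufa4l2.

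In paused cells too, more members were lower than higher. Of the members in the authors' deposited paused table, 30 were called, against 42.6% of 19979 genes tested, with 23 lower (22% of all genes) and 7 higher (20.5% of all genes). The median member changed by -0.06, with 62 of 85 below 0, and the median over all genes was 0.00. At 5 ppm or more 29.1% of the members were called lower against 32.4% of all such genes, and 5.06% higher against 19.1%. Here 7 called members reached 1.2-fold (26.8% of all genes), and Cox8c and Ndufa4l2 reached 1.5-fold (14.7% of all genes). Which table had more member calls depended on the setting. As deposited control cells had more (37 against 30), while paused cells had more at an adjusted p under 0.01 (19 against 14) and with the scalings and the trend removal described next.

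**Figure D1:**
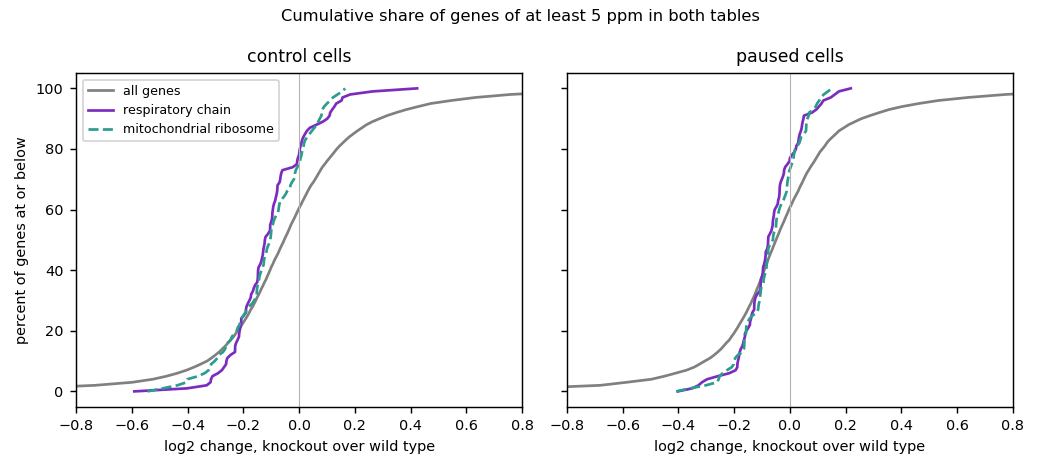
Cumulative percent of genes (y axis) at or below a log2 change, knockout over wild type (x axis), for genes of at least 5 ppm in both tables, in control (left) and paused cells (right). The 79 respiratory chain members (purple) and the 77 mitochondrial ribosomal protein genes (dashed green) have steeper curves than all genes (grey), with medians of -0.12 and -0.10 in control and -0.08 and -0.06 in paused cells.

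The split between falls and rises depended on the scaling. As deposited, 81.1% of the member calls in control cells were falls, against 52.9% of the calls over all genes. With the changes recentred so that the median abundant gene is at 0 (a shift of 0.05 in each table), or shifted so that both genotypes have equal sums, falls made up 45% of 20 member calls (9 lower and 11 higher). Over all genes the share of falls moved as well, to 39.9% and 39.5%. With trends on GC content and length of the transcript removed, 56% of 25 member calls were falls, against 51.3% over all genes. In paused cells 76.7% of the member calls were falls as deposited, 55.6% of 27 when recentred, 61.5% of 26 at equal sums and 65.4% of 26 after removal of the trend. Over all genes these shares were 51.8%, 39.1%, 42.4% and 50.0%. Under all 3 of these settings 7 members stayed lower in control cells: Cox7a2, Cox7a2l, Cycs, Ndufab1, Ndufc2, Sdha and Uqcrh. In paused cells 14 stayed lower, namely Atp5d, Atp5e, Atp5j, Cox6b1, Cox7a2, Cox7a2l, Cycs, Ndufa4, Ndufab1, Ndufb2, Ndufc2, Ndufv2, Sdhc and Uqcrfs1. Recentring, equal sums and trend removal, each by itself, called 15.9%, 15.7% and 21.4% of all genes lower in control cells. In paused cells these shares were 16.0%, 17.4% and 22.0%. The share of all genes that stayed lower under all 3 was not computed. All 7 members called higher in each table kept that call. Recentring and equal sums moved every change upward in both tables, so under these scalings a rise could hardly lose its call. The kept rises therefore do not show that rises were steadier than falls. A statistic scaled so that its middle spread is that of a standard normal was the deposited one divided by 2.76 in control and 2.80 in paused cells. It left 0 member calls in either table, with 1 member at an unadjusted p under 0.05 in each. Over all genes it left 293 and 450 calls (1.48% and 2.25%).

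Over both conditions, 18 members were called lower in both: Atp5d, Atp5e, Atp5g3, Atp5k, Atp5sl, Cox6b1, Cox7a2, Cox7a2l, Cox7c, Cycs, Ndufa4, Ndufab1, Ndufb2, Ndufb3, Ndufc2, Ndufv2, Sdhc and Uqcrfs1. They made up 21.2% of the members, against 16% of the 19132 genes tested in both tables. Among genes of at least 5 ppm the shares were 22.8% of the members and 22.9% of all. Called higher in both were 4, Atp5g1, Cox6b2, Cox8c and Ndufa4l2 (4.71%, against 14.3% of all genes), and no member was called in opposite directions (0.162% of all genes). A further 15 were called in control cells alone (17.6%, against 11.9% of all genes), 8 in paused cells alone (9.41% against 13.4%) and 40 in neither (47.1% against 44.2%). A call in 1 condition alone does not show that the changes differ. Over the 79 members of at least 5 ppm the changes of the tables had a Spearman rho of 0.56, against 0.81 over the 10484 genes of that level, and over all 85 members it was 0.63. These are descriptions across genes, which share libraries within each table and are not independent replicates.

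**Figure D2:**
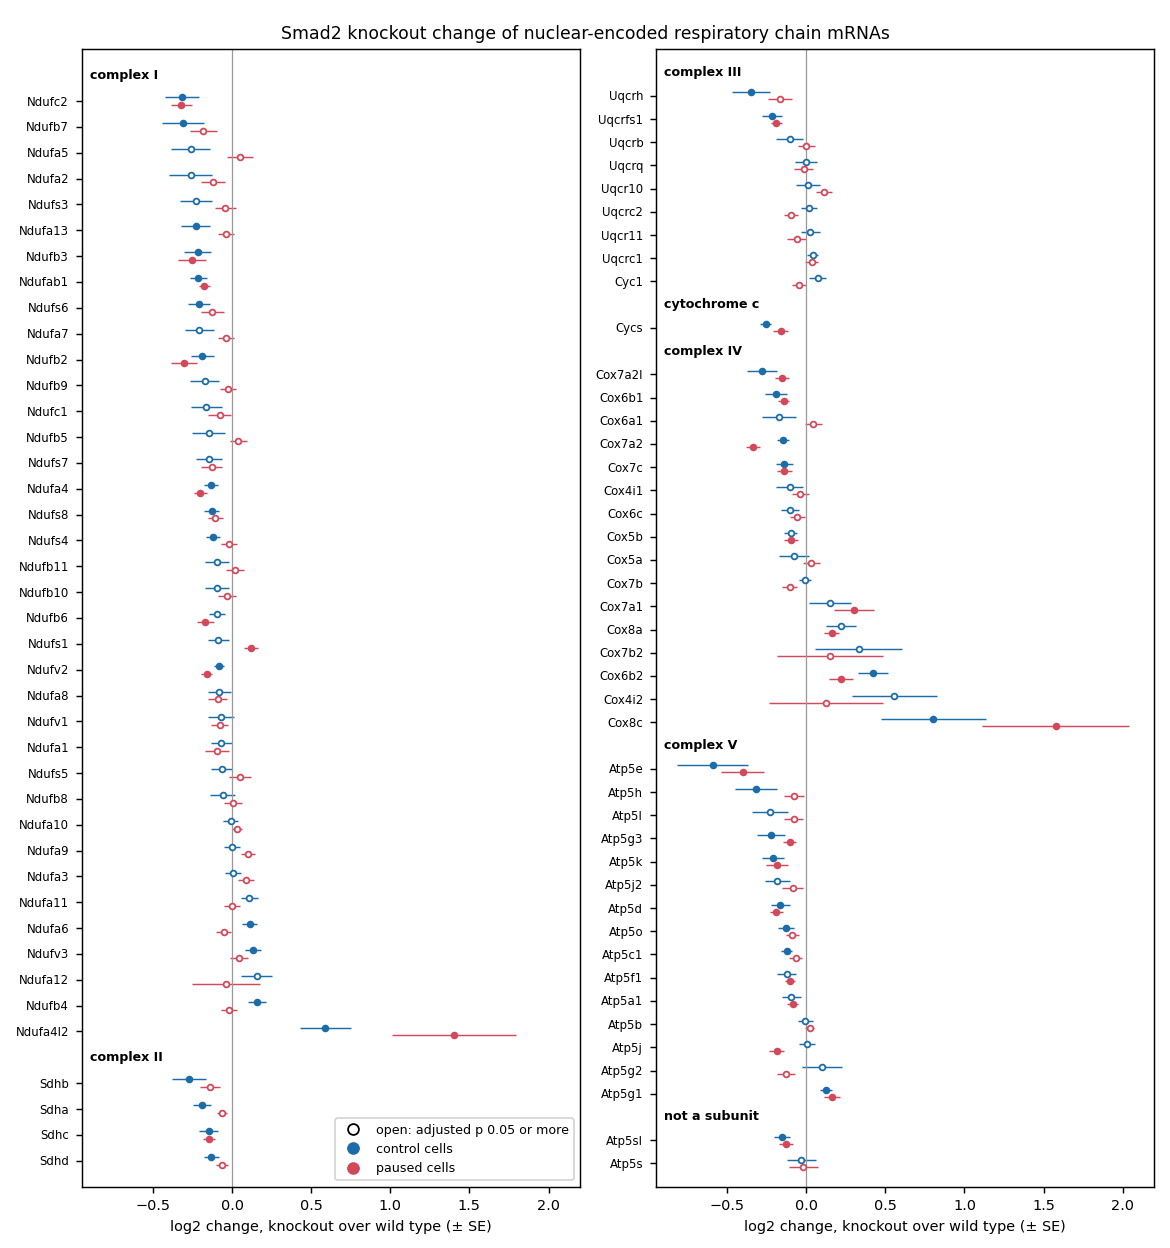
Log2 change, knockout over wild type (x axis, points), with its SE (bars), for the members reported, by complex, in control (blue) and paused cells (red). Filled points are called at an adjusted p under 0.05. Most points lie between -0.35 and 0.25, with Atp5e lowest at -0.59 and Cox8c highest at 1.58.

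Complex I, the entry point for NADH, had 11 members lower and 4 higher of 38 in control cells, and 7 lower and 2 higher in paused cells, with medians of -0.10 and -0.04 in the authors' deposited tables. Called lower were thus 28.9% and 18.4% of its members, against 21.9% and 22% of all genes and 31.6% and 32.4% of those of at least 5 ppm. Called higher were 10.5% and 5.26%, against 19.5% and 20.5% of all genes. Recentring turned the split in control cells to 2 lower (Ndufc2 and Ndufab1) and 5 higher (Ndufa4l2, Ndufa6, Ndufb4, Ndufv3 and Ndufa11), and equal sums called these members as well. With the GC and length trend removed 6 were lower and 5 higher, among them Ndufa7 (lower) and Ndufa11 (higher), which were not called as deposited. In paused cells complex I had 6 lower and 5 higher when recentred, 7 and 4 at equal sums, and 5 and 3 after removal of the trend. The 7 core subunits, which hold the flavin and iron-sulphur clusters, were all below 0 in control cells. Of these Ndufv2 and Ndufs8 were called there. Ndufv2, with a mean normalized count of 4925 in control and 3288 in paused cells, fell by 0.08 (SE 0.03, adjusted p 0.0276) and by 0.16 (SE 0.03) in the authors' deposited tables. Ndufs1, the largest core subunit, stood at -0.09 (SE 0.06, adjusted p 0.292) in control cells and rose by 0.12 (SE 0.04, adjusted p 0.0127) in paused cells.

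Among the accessory subunits of complex I the largest fall in both conditions was that of Ndufc2, a membrane arm subunit (chr7:97400003-97407800). In the authors' deposited tables it fell by 0.32 in control (SE 0.11, adjusted p 0.00972) and by 0.32 in paused cells (SE 0.07, adjusted p 6.83e-06), to 80.2% and 80.0% of wild type. Ndufb7 fell by 0.31 in control cells (SE 0.13, adjusted p 0.0491) and was not called in paused cells (-0.18, SE 0.09). Ndufb2 fell by 0.19 (SE 0.07) and by 0.30 (SE 0.08), and Ndufb3 by 0.22 (SE 0.08) and 0.25 (SE 0.09), in the authors' deposited tables for control and paused cells. Ndufab1, the mitochondrial acyl carrier protein, fell by 0.21 (SE 0.06) and 0.18 (SE 0.04). Called higher in control cells were Ndufa4l2, described with the isoforms, and Ndufb4 (0.16, SE 0.06), Ndufv3 (0.13, SE 0.05) and Ndufa6 (0.11, SE 0.05), of which the last 3 stood at -0.02, 0.04 and -0.05 in paused cells and were not called there.

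All 4 subunits of complex II, the succinate dehydrogenase that also serves in the citric acid cycle, were called lower in control cells, as were 21.9% of all genes. In the authors' deposited tables Sdhb, the iron-sulphur subunit, fell by 0.27 (SE 0.11, adjusted p 0.0292) to 82.8% of wild type. Sdha, the flavoprotein, fell by 0.19 (SE 0.06), and the membrane anchors Sdhc and Sdhd fell by 0.15 (SE 0.06) and 0.13 (SE 0.05). In paused cells all 4 were below 0 and Sdhc was called, at -0.14 (SE 0.04, adjusted p 0.000726). When the control changes were recentred, 1 of the 4, Sdha, stayed called.

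Of the 9 members of complex III 2 were called in control and 1 in paused cells as deposited, each lower (22.2% and 11.1%, against 21.9% and 22% of all genes), with medians of 0.01 and -0.04. After recentring or at equal sums 2 were lower and 2 higher (Cyc1 and Uqcrc1) in control cells. Removal of the GC and length trend left 1 lower (Uqcrh) and 1 higher (Cyc1) there. In paused cells 1 was lower (Uqcrfs1) and 1 higher (Uqcr10) under each of these settings. Uqcrh, the hinge protein that helps cytochrome c dock, fell by 0.35 in the authors' deposited control table (SE 0.12, adjusted p 0.0135), to 78.5% of wild type, and stood at -0.17 (SE 0.07, adjusted p 0.0593) in paused cells. Uqcrfs1, the Rieske iron-sulphur protein, fell by 0.22 (SE 0.07, adjusted p 0.00365) and by 0.19 (SE 0.03, adjusted p 4.7e-07). The core proteins Uqcrc1 and Uqcrc2 and cytochrome c1 (Cyc1) lay between -0.10 and 0.07 in both tables and were not called as deposited. With genes under 5 ppm left out, Uqcrc2 and Uqcrh were called lower and Uqcr10 higher in paused cells. Cytochrome c itself (Cycs, chr6:50562563-50566569), the soluble carrier that also triggers apoptosis when released, had the smallest adjusted p of all members in control cells. It fell by 0.26 (SE 0.04, adjusted p 4.5e-11) to 83.7% of wild type there and by 0.16 (SE 0.05, adjusted p 0.00313) to 89.4% in paused cells, per the authors' deposited tables. Of the 50-base windows of its transcript 28.2% are also found in other annotated genes.

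Complex V, the ATP synthase, had 7 members lower and 1 higher of 15 in each condition, with medians of -0.13 and -0.09 in the authors' deposited tables. The share called lower was 46.7% in each, against 21.9% and 22% of all genes and 31.6% and 32.4% of genes of at least 5 ppm. The share called higher was 6.67%, against 19.5% and 20.5% of all genes. Atp5e, the epsilon subunit of the central stalk (chr2:174461075-174464101), had the largest fall of any member. It fell by 0.59 in control (SE 0.22, adjusted p 0.0222) and by 0.40 in paused cells (SE 0.14, adjusted p 0.0107), to 66.4% and 75.7% of wild type, with the largest SE among abundant members in control cells. After removal of the GC and length trend its control change was -0.51 with an adjusted p of 0.0504. Atp5d, the delta subunit of the same stalk, fell by 0.16 (SE 0.06) and by 0.19 (SE 0.04). Atp5k, a membrane subunit, fell by 0.21 (SE 0.07, adjusted p 0.00852) and by 0.18 (SE 0.07, adjusted p 0.0241). The catalytic subunit Atp5b, the most abundant member per kilobase at 1026 and 882 ppm per kb, was not called, at -0.01 (SE 0.05) and 0.02 (SE 0.03) in the authors' deposited tables. In control cells 1 of the 7 falls in complex V, that of Atp5e, kept its call after recentring, and 0 after removal of the GC and length trend. In paused cells 3 members were called lower after recentring (Atp5d, Atp5j and Atp5e) and 5 after removal of the trend.

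Complex IV, cytochrome c oxidase, had 4 members lower and 2 higher of 16 in control cells and 5 lower and 4 higher in paused cells, with medians of -0.09 and 0.00. Called lower were 25% and 31.2%, against 21.9% and 22% of all genes and 31.6% and 32.4% of those of at least 5 ppm, and called higher 12.5% and 25%, against 19.5% and 20.5%. As deposited, the isoforms of subunit VIb were called in opposite directions in both tables, and those of VIIa in paused cells. In control cells Cox6b1 lost its call after recentring and at equal sums, and with it the opposite calls of VIb. There complex IV had 2 members lower (Cox7a2 and Cox7a2l) and 3 higher (Cox8a, Cox8c and Cox6b2). In paused cells the opposite calls of both pairs held under these scalings and after removal of the trend. Under each of these settings complex IV had 3 members lower and 4 higher in paused cells. Cox6b1 (chr7:30616971-30626114) codes for the common form of a subunit that bridges the enzyme's monomers, and its mean normalized count was 4805 in control and 2849 in paused cells. It fell by 0.19 (SE 0.07, adjusted p 0.0164) and by 0.14 (SE 0.03, adjusted p 0.000161) in the authors' deposited tables. Cox6b2 (chr7:4751792-4753094), the form known from testis, had means of 910 and 685. It rose by 0.42 (SE 0.10, adjusted p 6e-05) and by 0.22 (SE 0.08, adjusted p 0.0116), to 134% and 116% of wild type. Per kilobase Cox6b2 stood at 45.4 ppm against 215 for Cox6b1 in control cells.

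Cox7a2 (chr9:79755241-79771422), the common form of subunit VIIa, fell by 0.15 (SE 0.04, adjusted p 0.000328) in control and by 0.34 (SE 0.05, adjusted p 2.94e-12) in paused cells, to 90.2% and 79.2% of wild type in the authors' deposited tables. The muscle form Cox7a1 stood at 0.15 (SE 0.13, adjusted p 0.392) and rose by 0.30 in paused cells (SE 0.12, adjusted p 0.0393), at means of 225 and 126. Cox7a2l, the supercomplex factor, fell by 0.28 (SE 0.09) and 0.15 (SE 0.04). Cox8a, the common form of subunit VIII, rose by 0.16 in paused cells (SE 0.05, adjusted p 0.00196) and stood at 0.22 (SE 0.10, adjusted p 0.0522) in control cells. Its testis form Cox8c rose by 0.80 (SE 0.33, adjusted p 0.0396) and 1.58 (SE 0.47, adjusted p 0.00279) in the authors' deposited tables, at means of only 17.0 and 9.99. Cox4i1, Cox6a1 and Cox7b, each the common form of its subunit, were not called in either table. Nor were Cox4i2 (0.56, SE 0.27 and 0.13, SE 0.36) and Cox7b2 (0.33, SE 0.27 and 0.15, SE 0.33), both at or below a mean of 30.5 normalized counts.

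Ndufa4 fell by 0.13 (SE 0.04, adjusted p 0.00678) and by 0.20 (SE 0.04, adjusted p 4.52e-06) in the authors' deposited tables. Its hypoxia-inducible relative Ndufa4l2 (chr10:127509274-127517154) rose by 0.59 (SE 0.16, adjusted p 0.00125) and by 1.40 (SE 0.39, adjusted p 0.00137), at means of 63.1 and 15.3. In total the 6 alternative isoforms Cox4i2, Cox6b2, Cox7a1, Cox7b2, Cox8c and Ndufa4l2 were above 0 in both tables, with 3 called in control and 4 in paused cells. They were grouped with their values known, and all but Cox6b2 were under 5 ppm in a table. Genes of that low level leaned the same way, with medians of 0.17 and 0.16 and 21.3% and 22.1% called higher. The c-ring of the ATP synthase is encoded by a trio of genes for 1 mature protein. Of these Atp5g3 fell by 0.22 (SE 0.09) and 0.11 (SE 0.04), Atp5g1 rose by 0.12 (SE 0.04) and 0.16 (SE 0.05), and Atp5g2 was not called (0.10, SE 0.13 and -0.13, SE 0.06).

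**Figure D3:**
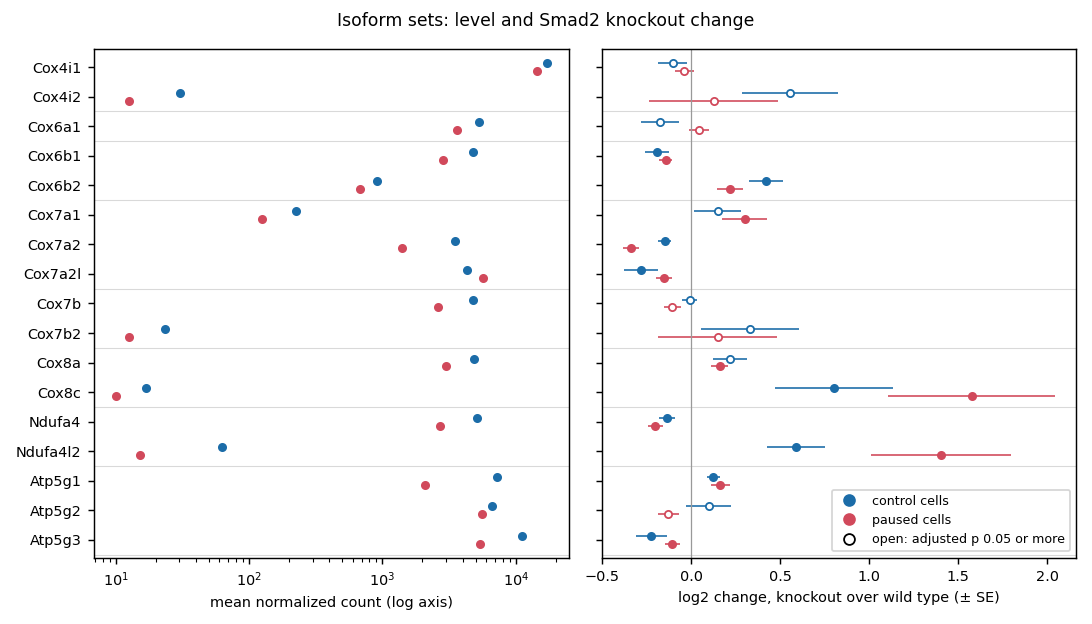
Isoform sets, separated by grey lines: mean normalized count on a log axis (left) and log2 change, knockout over wild type, with its SE (right), in control (blue) and paused cells (red). Filled points on the right are called at an adjusted p under 0.05. The alternative isoforms lie at or below 910 normalized counts and to the right of 0. Cox4i1, Cox6b1, Cox7a2, Cox7b and Ndufa4 lie to the left and Cox8a to the right. Cox6a1 lies to the left in control and to the right in paused cells.

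Reads of some members cannot be separated with certainty from those of near-identical copies. Over 50% of the 50-base windows of a representative transcript were shared with another gene for 6 members: Atp5g2 (100%), Atp5l (68.5%), Atp5h (66.6%), Atp5g1 (66.0%), Atp5o (63.0%) and Ndufa12 (53.8%). Their values are uncertain for that reason, including the rises of Atp5g1 and the fall of Atp5h in control cells (-0.32, SE 0.14, adjusted p 0.047). For 49 members no window was shared, among them Cox6b1, Cox6b2, Cox7a2, Ndufc2, Ndufa4 and Atp5e.

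Whether the knockout change itself differed between conditions was tested as the paused minus the control change. At an adjusted p under 0.05 it differed for 0 of the 85 members, against 1.44% of 19134 genes, by a two-sided normal test on the deposited changes and SEs. At an unadjusted p under 0.05 there were 7 members (8.24%), against 12.9% of all genes. The smallest p was that of Cox7a2, with a difference of -0.19 (95% interval -0.30 to -0.07, adjusted p 0.0711), the larger fall being in paused cells. Next were Atp5j, a stalk subunit, at -0.19 (-0.33 to -0.05), Ndufs1 at 0.21 (0.06 to 0.36) and Ndufa6 at -0.17 (-0.29 to -0.04). For members of at least 5 ppm in both tables the 95% intervals of the difference ran at most from -0.65 (Ndufa12) to 0.70 (Atp5e). The median difference was 0.04, with 56 members above 0. With genes under 5 ppm left out, and with equal summed counts, Cox7a2 was called, and after removal of the GC and length trend Ndufa6 was called.

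Members took a smaller share of the paused than of the control table. As ppm of the summed mean counts, which average over the libraries that entered a table, the median ratio of paused to control was 0.626 over the 85 members, and 78 were lower in paused cells. The median ratio over all 19134 genes was 1.06. The tables were normalized separately and hold no error for these means, so the ratio is a description with no test. It ran from 0.253 for Ndufa4l2 to 1.35 for Cox7a2l. Among abundant members Atp5g1 (0.298), Uqcrq (0.330), Uqcr11 (0.361) and Cycs (0.384) were lowest. Among the ratios above 1 were those of Ndufb11, Ndufs1, Sdha, Cox7a2l, Atp5s and Atp5sl. The core subunits of complex I had a median of 0.887 and its accessory subunits 0.618.

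The ratio moved with transcript length. It had a median of 0.561 in the 29 shortest members (up to 599 bases), 0.617 in the 27 between and 0.794 in the 29 longest (from 1046 bases). Spearman's rho between ratio and length was 0.42 over the 85 members and 0.32 over 10323 genes of at least 5 ppm, across genes that share the same libraries. The part of length in the lower share of members was not tested. Between the knockout change and length rho was -0.04 in control and -0.07 in paused cells over the members, and 0.19 and 0.12 over the 10323 genes of at least 5 ppm. The 77 mitochondrial ribosomal protein genes had a median ratio of 0.722, and the 13 subunits encoded by mitochondrial DNA one of 0.851.

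**Figure D4:**
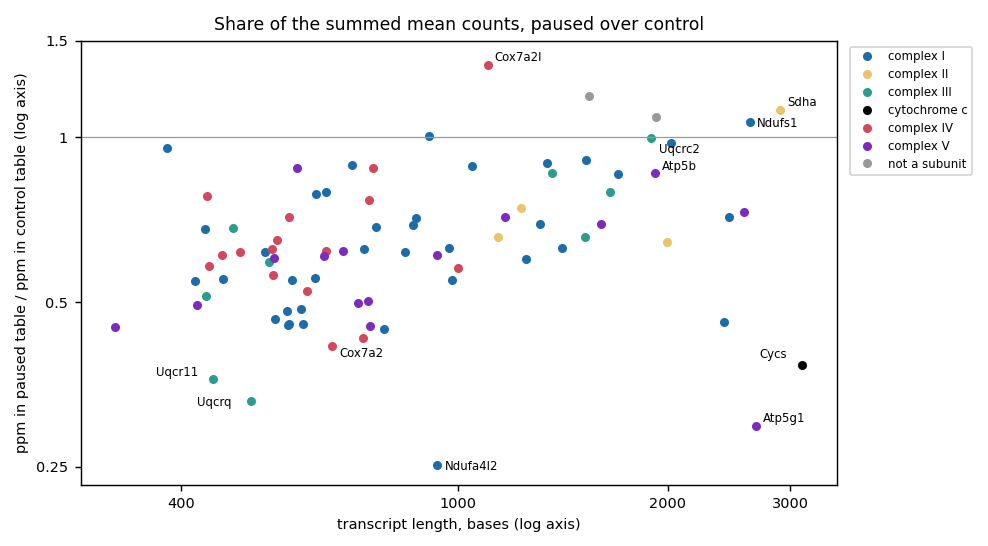
Ratio of the ppm in the paused to that in the control table (y axis, log scale) against transcript length in bases (x axis, log scale), 1 point per member reported, coloured by complex. Most points lie below 1, with Cox7a2l at 1.35 and Ndufa4l2 at 0.253, and short transcripts lie lower than long ones on the whole.

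The 13 subunits encoded by mitochondrial DNA, which join the members in complexes I, III, IV and V, were all above 0 in the authors' deposited control table. Their median was 0.24 at a median SE of 0.22, and none was called, nor had any an unadjusted p under 0.05. In paused cells 10 of 13 were above 0, with a median of 0.10, and COX3, a core subunit of complex IV, was called (0.20, SE 0.08, adjusted p 0.0224). The shares called were thus 0% and 7.69%, against 41.4% and 42.6% of all genes.

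Assembly factors, which insert cofactors or help subunits join, were in the tables for 45 of 48 listed. The control table called 15 of them lower and 3 higher, and the paused table called 16 lower and 1 higher. The 33.3% and 35.6% called lower stand beside 21.9% and 22% of all genes and 31.6% and 32.4% of genes of at least 5 ppm. Below 0 were 33 of the 45 in each table, with medians of -0.15 and -0.09 in the authors' deposited tables. The largest falls in control cells were those of Surf1, a complex IV factor (-0.46, SE 0.09), Nubpl, an iron-sulphur protein for complex I (-0.45, SE 0.09) and Timmdc1, a complex I membrane arm factor (-0.40, SE 0.06). In paused cells Surf1 was at -0.23 (SE 0.07), Nubpl at -0.23 (SE 0.07) and Timmdc1 at -0.24 (SE 0.05), and all 3 were called. Sdhaf4, a complex II factor, fell by 0.43 (SE 0.11) and Ndufaf7, a methyltransferase for complex I, by 0.37 (SE 0.07) in paused cells. Acad9, which serves in complex I assembly, rose by 0.35 in both (SE 0.04 and 0.03). The difference between conditions was called for none of the 45, against 1.44% of all genes. At an unadjusted p under 0.05 there were 6 (13.3%), against 12.9% of all genes.

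Of the 12 regulators of mitochondrial genes in the tables, 2 were called lower and 1 higher in control cells and 3 lower and 2 higher in paused cells. Nrf1, the factor behind the NRF1 motif, fell by 0.09 (SE 0.04) and 0.12 (SE 0.05), and Tfam, which packages mitochondrial DNA, by 0.17 (SE 0.07) and 0.14 (SE 0.04), in the authors' deposited tables. Gabpa, which reads the ETS motif, rose by 0.09 (SE 0.04) and 0.08 (SE 0.03). Of 13 citric acid cycle genes 3 were called lower and 4 higher in control cells and 5 lower and 3 higher in paused cells. The regulators called were 25% and 41.7%, and the cycle genes called 53.8% and 61.5%, against 41.4% and 42.6% of all genes. Fh1, the fumarase that acts next to complex II, fell by 0.19 (SE 0.04) and by 0.40 (SE 0.05). Idh3b, a subunit of isocitrate dehydrogenase, rose by 0.19 (SE 0.03) and 0.24 (SE 0.03).

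Among 7 carriers and pores 4 were called lower and 1 higher in each condition (71.4% called, against 41.4% and 42.6% of all genes). Slc25a4, the ADP/ATP carrier of heart and muscle, fell by 0.31 (SE 0.06) and 0.36 (SE 0.05), and the phosphate carrier Slc25a3 by 0.25 (SE 0.05) and 0.22 (SE 0.03), in the authors' deposited tables. Slc25a31, the ADP/ATP carrier of testis, rose by 0.62 (SE 0.10) and 0.78 (SE 0.11), at means of 187 and 278. Of 77 mitochondrial ribosomal protein genes, taken for comparison, 29 were called lower and 1 higher in control cells, and 22 lower and 3 higher in paused cells. The 37.7% and 28.6% called lower stand beside 31.6% and 32.4% of genes of at least 5 ppm, a level that all 77 reached. Their medians of -0.10 and -0.06 were those of all 85 respiratory chain members to 2 decimals. The 79 members of at least 5 ppm had medians of -0.12 and -0.08. Whether the sets differ was not tested.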

How the data were processed

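Libraries of poly(A) RNA were processed by the submitters with FastQC, Trim Galore, HISAT2, featureCounts and DESeq2 on mm10, per the submitters' processing notes; versions, settings, the use of strand and which libraries entered each comparison are not given in the sources used here. The authors deposited 2 results tables. The mean normalized count is a signal value, averaged over libraries, per the file headers. The log2 change and its SE are on the log2 scale, the statistic is a score, and each deposited p-value is two-sided, with its adjusted form beside it. Recomputed Benjamini-Hochberg values differed from the deposited ones by at most 3.49e-07. The depth per library is unknown.

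Members were read out of the whole tables, and called means an adjusted p under 0.05. The difference was tested over the 19134 genes in both tables, as the change in paused minus that in control cells over the root of the summed squared SEs, with Benjamini-Hochberg adjustment. This was checked on simulated tables. Intervals are at the 95% level and cover the deposited SE only. Count tests per library, planned for the case that counts were given, could not be used because the values are results. A ppm is 1e+06 times a gene's share of the summed means, and ppm per kb divides it by the median length of the protein-coding basic transcripts of GENCODE M21, found for all 85 members and 88.5% of all symbols. Windows of 50 bases were compared with all other GENCODE transcripts. Coordinates and promoters are those of RefSeq on GRCm38.p6, to which all 85 members matched by symbol or synonym. Alternatives were a stricter threshold, a minimum fold, a minimum of 5 ppm, 2 scalings, a scaled statistic, removal of the GC and length trend as running medians over 50 bins, and leaving out Atp5s and Atp5sl.

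Any member may be named, except that 1 is not reported here by itself; it remains in the counts and medians. Fuller values were given to the 6 called members with the largest rise and fall per table, the largest per complex, isoform sets and the 4 smallest p of the difference. Of the other lists only some of the largest changes were given. Among those not given were Cox20 (0.89, SE 0.35) and Dlst (-0.25, SE 0.05) in control cells. In paused cells they included Tfb2m (-0.15, SE 0.05), Esrra (0.15, SE 0.06) and Suclg2 (0.20, SE 0.04). A few others, such as Ndufab1, Ndufv2, Atp5b, Atp5d and Atp5k, were chosen after their values were seen. Members and lists were chosen with earlier results of these data known. Python 3.11.15 was used with numpy 2.4.6, scipy 1.17.1, pandas 2.3.3 and matplotlib 3.10.9.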

Additional observations from a re-analysis of the deposited data

Results flagged for a closer look

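The knockout change differed between the conditions by the test of the difference for 3 genes of the lists that accompany the respiratory chain, and for none of its members. They were 1 of 13 citric acid cycle genes, 1 of 8 pluripotent cell markers and 1 of 4 mesendoderm markers, and the other lists had none. Over all genes 1.44% were called for the difference, and 2.17% of those of at least 5 ppm. Fh1, which codes for fumarase, had a paused minus control difference of -0.21 (SE 0.06, adjusted p 0.0307), falling in both conditions and further in paused cells. Klf4, a pluripotency factor, had a difference of -0.30 (SE 0.08, adjusted p 0.0264), rising by 0.56 in control and by 0.26 in paused cells. Eomes, a mesendoderm factor, had a difference of 0.89 (SE 0.25, adjusted p 0.0326), with a fall of 0.94 in control cells and a change of -0.06 that was not called in paused cells.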

How the results depend on the processing

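No member called lower as deposited was called higher under any alternative, nor the reverse. The sign of the change, called or not, was compared only for the members given fuller values by rule. Among these no called value changed sign. In control cells, with 37 called (30 lower, 7 higher), an adjusted p under 0.01 left 14 (11 and 3), a change of at least 1.2-fold 10 (7 and 3) and the scaled statistic 0 (0 and 0), while recentring and equal summed counts each gave 20 (9 and 11). The shares of members called at an adjusted p under 0.01, at 1.2-fold and under recentring were 16.5%, 11.8% and 23.5%, against 30.9%, 28.5% and 39.7% of all genes. Removal of the GC and length trend gave 14 lower and 11 higher. In paused cells, with 30 called (23 lower, 7 higher), an adjusted p under 0.01 left 19 (15 and 4), 1.2-fold 7 (4 and 3) and the scaled statistic 0 (0 and 0), while recentring gave 15 lower and 12 higher. Here the shares of members under the same 3 settings were 22.4%, 8.24% and 31.8%, against 32.3%, 26.8% and 40.9% of all genes. The difference between conditions, called for 0 members, was called for 1 with the abundance minimum, with equal summed counts and with the trend removed. The minimum on abundance and the omission of Atp5s and Atp5sl kept the counts per table within 1.5 times. The cause of these shifts was not tested. No paired analysis was possible because the tables hold no value per library. For the same reason leaving out each replicate, the replicate block and count tests with edgeR or DESeq2 were not run. Depth per library is unknown, and a change under about 0.1 on the log2 scale lies within 2 median SEs (0.07 in control and 0.05 in paused cells).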

Other observations

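Subunit genes of the ATP synthase that older symbols keep outside the naming rule were looked up after the members' values were seen. In the authors' deposited tables Usmg5, now named Atp5md, fell by 0.41 in control cells (SE 0.13, adjusted p 0.00851) and stood at -0.17 in paused cells (SE 0.08, adjusted p 0.0614). The gene 2010107E04Rik, now named Atp5mpl, fell by 0.42 (SE 0.14, adjusted p 0.0114) and by 0.16 (SE 0.07, adjusted p 0.0463). Atpif1, the inhibitor of the ATP synthase, stood at -0.01 in control cells (SE 0.04) and fell by 0.15 in paused cells (SE 0.05, adjusted p 0.00591).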
